A study of Homo sapiens with 5 samples.

Results

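Cytokine, chemokine, tumor necrosis factor (TNF) and interferon genes were followed in TC28a2 cells, an established human chondrocyte cell line, that were grown for 5 days in either growth medium or hypertrophic medium. Members were taken by symbol alone, from the families CXCL, CXCR, CCL, CCR, interleukins and their receptors, TNFSF, TNFRSF, TNFAIP, IFI, IFNGR, IFNAR, IRF, NFKB, TLR, HLA, ISG, OAS, MX, STAT, SOCS and LIF, and names with an antisense suffix were left out. The rule found 66 members among the 2694 listed genes, of which 64 are protein-coding in the RefSeq table of GRCh38.p14 and 2, HLA-L and IL6STP1, are pseudogenes. That table holds 287 protein-coding symbols that fit the rule, and the others, among them NFKB1, NFKBIA and the chemokine receptors, were not analysed here.

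Total RNA was sequenced from 2 growth medium libraries and 3 hypertrophic medium libraries. Growth medium held 10% serum, whereas in hypertrophic medium the serum was cut to 1% and joined by 10 nM of the glucocorticoid dexamethasone, 1 µM of the thyroid hormone T3, BMP-2 at 100 ng/ml, GDF-5 at 10 ng/ml, 10 mM β-glycerophosphate, ascorbic acid at 50 µg/ml and 1% of an insulin, transferrin and selenium supplement. Less serum and every one of these agents changed together, so their effects cannot be told apart. All libraries came from a single line. The study describes its replicates in general as biological, but the labels do not say whether these libraries were separate cultures, so the p-values set a difference against the spread between these libraries, which may be technical.

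Inflammatory cytokines such as interleukin-1 and TNF switch on NF-κB and AP-1, the transcription factors that drive genes for further cytokines, chemokines and matrix proteases, and in cartilage this circuit is known for pushing chondrocytes to degrade their matrix. Cytokines of the interleukin-6 family share the receptor subunit gp130 and signal through STAT3, while SOCS proteins, induced by the same route, shut it down. Type I interferons signal through a complex that holds STAT2 and IRF9 to elements called ISREs in the promoters of antiviral genes. The glucocorticoid receptor is known to restrain NF-κB and AP-1 target genes.

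Values are the authors' log2 values, scaled between libraries, with 1 value per gene and library. Whether they were scaled by gene length could not be settled from the sources, so levels are compared between libraries for a gene and not between genes. Every difference below is a log2 difference, hypertrophic minus growth medium. The listed genes leave a gap around a difference of 0 that widens with the level: the smallest size was 0.21 in the 557 genes with a mean value under 6, 0.38 in the 1254 genes from 6 to 10 and 0.55 in the 883 genes above 10. The listed genes appear to be those the study had called between the media on these libraries, by a cutoff that the values do not settle, so an adjusted p says little here and the size of a difference says more. Hypertrophic medium replicate 1 stood apart from replicates 2 and 3. It was the highest of the 3 hypertrophic libraries in 44 of the 66 members, against 43.1% of all listed genes, and in 35 of the 48 members that were higher in hypertrophic medium, against 55.1% of all listed genes that were higher. Results that rest on it are given with and without it.

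Promoter letters were not read by the naming rule, but it takes symbols such as IFI and OAS, which name interferon-induced genes. ISRE letters are therefore not independent of the rule. The RefSeq table of GRCh38.p14 promoters held 48 of the 66 members, and the 250 bases before the start site (the first listed start where a gene has several) were searched on both strands for GGNNTTTCC, a form of the NF-κB site, for GAAANNGAAA, the core of the ISRE, for TTCNNNGAA, the STAT site known as GAS, and for TGANTCA, the AP-1 site. GGNNTTTCC was present in 5.48% of all 27305 promoters and in 4 of the 12 lower members with a promoter (33.3%), IL6, CXCL8, CXCL6 and TLR2. It was present in 2 of the 36 higher members (5.56%), TNFAIP3 and IL18R1. The GAS and NF-κB letters overlap in CXCL6.

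These promoters are shown because they carry the NF-κB letters, in capitals, in genes that moved in opposite directions. IL6 (chr7:22726950-22727199, plus strand) and CXCL8 (chr4:73740319-73740568, plus strand) are those of cytokines that were lower in hypertrophic medium, and TNFAIP3 (chr6:137867009-137867258, plus strand) is that of an NF-κB inhibitor that was higher, with 2 matches on the other strand. The match ended 64 bases before the start site in IL6, 83 in CXCL8, and 59 and 47 in TNFAIP3.
IL6: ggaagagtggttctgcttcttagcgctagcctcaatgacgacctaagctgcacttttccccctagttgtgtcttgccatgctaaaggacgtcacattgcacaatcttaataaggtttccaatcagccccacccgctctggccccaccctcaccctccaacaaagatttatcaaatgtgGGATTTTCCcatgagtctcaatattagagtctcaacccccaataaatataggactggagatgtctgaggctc
CXCL8: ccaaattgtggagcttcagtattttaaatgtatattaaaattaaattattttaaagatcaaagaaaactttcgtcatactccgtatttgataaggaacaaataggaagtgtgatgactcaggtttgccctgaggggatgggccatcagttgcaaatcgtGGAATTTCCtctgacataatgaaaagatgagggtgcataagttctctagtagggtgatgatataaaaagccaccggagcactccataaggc
TNFAIP3: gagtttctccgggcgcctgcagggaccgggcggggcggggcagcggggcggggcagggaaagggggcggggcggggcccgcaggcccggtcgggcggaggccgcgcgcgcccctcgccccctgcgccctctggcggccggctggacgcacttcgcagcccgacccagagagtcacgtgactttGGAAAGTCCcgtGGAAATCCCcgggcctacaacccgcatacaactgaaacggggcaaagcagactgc

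The ISRE letters GAAANNGAAA were present in 3.07% of all promoters and in 7 of the 12 interferon pathway members with a promoter (58.3%), IFI6, IFIT1, IFIT3, IFITM1, IFITM3, IFI44 and IFI44L, all higher in hypertrophic medium. Outside that group they were in 2 of 36 members (5.56%), TNFRSF1B and SOCS1, and in 0 of the 12 lower members. The interferon pathway genes were all higher, so the lower members hold no gene of that group. The promoters of IFITM1 (chr11:313790-314039, plus strand), IFITM3 (chr11:320861-321110, minus strand), IFI44L (chr1:78620198-78620447, plus strand) and IFI6 (chr1:27672193-27672442, minus strand) are shown to compare these matches, in capitals. IFITM1 held 1 match, IFITM3 and IFI44L held 2 each and IFI6 held 3. A match is a match of letters and does not show that a factor was bound.
IFITM1: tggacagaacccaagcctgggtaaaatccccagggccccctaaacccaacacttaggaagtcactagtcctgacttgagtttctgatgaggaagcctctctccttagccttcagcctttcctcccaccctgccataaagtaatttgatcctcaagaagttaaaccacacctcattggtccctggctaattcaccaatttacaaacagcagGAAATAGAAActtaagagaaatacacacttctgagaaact
IFITM3: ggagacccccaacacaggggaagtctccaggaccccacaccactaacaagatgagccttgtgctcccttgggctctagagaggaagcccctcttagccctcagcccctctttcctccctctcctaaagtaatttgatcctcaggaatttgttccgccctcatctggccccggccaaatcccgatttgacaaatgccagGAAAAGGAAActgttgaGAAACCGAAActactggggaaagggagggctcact
IFI44L: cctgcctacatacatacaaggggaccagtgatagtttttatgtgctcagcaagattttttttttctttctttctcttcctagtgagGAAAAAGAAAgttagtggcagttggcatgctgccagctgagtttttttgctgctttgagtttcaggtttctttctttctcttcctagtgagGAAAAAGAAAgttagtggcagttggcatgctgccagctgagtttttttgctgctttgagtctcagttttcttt
IFI6: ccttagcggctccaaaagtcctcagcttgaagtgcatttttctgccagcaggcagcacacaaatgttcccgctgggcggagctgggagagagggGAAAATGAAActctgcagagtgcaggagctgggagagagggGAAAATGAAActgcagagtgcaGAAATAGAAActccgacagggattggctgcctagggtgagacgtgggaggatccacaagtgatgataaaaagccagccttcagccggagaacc

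GAS letters were in 6.78% of all promoters and in 9 of the 48 members (18.8%), IL1B, CXCL6, IL15RA, LIFR, OAS1, IFI35, IFITM1, IRF9 and TLR3. AP-1 letters were in 6.60% of all promoters and in 5 members (10.4%), CXCL8, IL11, TNFAIP6, TNFSF15 and IL22RA1. In both sets some members were lower and others higher in hypertrophic medium.

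Genes of secreted inflammatory cytokines were the members with the largest decreases in hypertrophic medium, while most receptor genes and all listed interferon pathway genes were higher. Of the 66 members, 48 (72.7%) were higher and 18 lower, beside 1707 higher (63.4%) and 987 lower among all listed genes, and each member had an adjusted p under 0.05 (limma), as did 99.0% of all listed genes. In each of the 66 every hypertrophic library lay on the same side of both growth medium libraries, which was also so for 99.0% of the listed genes, so neither count sets the members apart. With a difference of at least 1 also required, 11 members (16.7%) were higher and 6 (9.09%) lower, against 11.8% and 7.05% of all listed genes. The median difference was 0.61 over the members and 0.56 over all listed genes. In the plot of difference against level, 5 ligands and the receptor gene IL7R lie below -1.

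**Figure D1:**
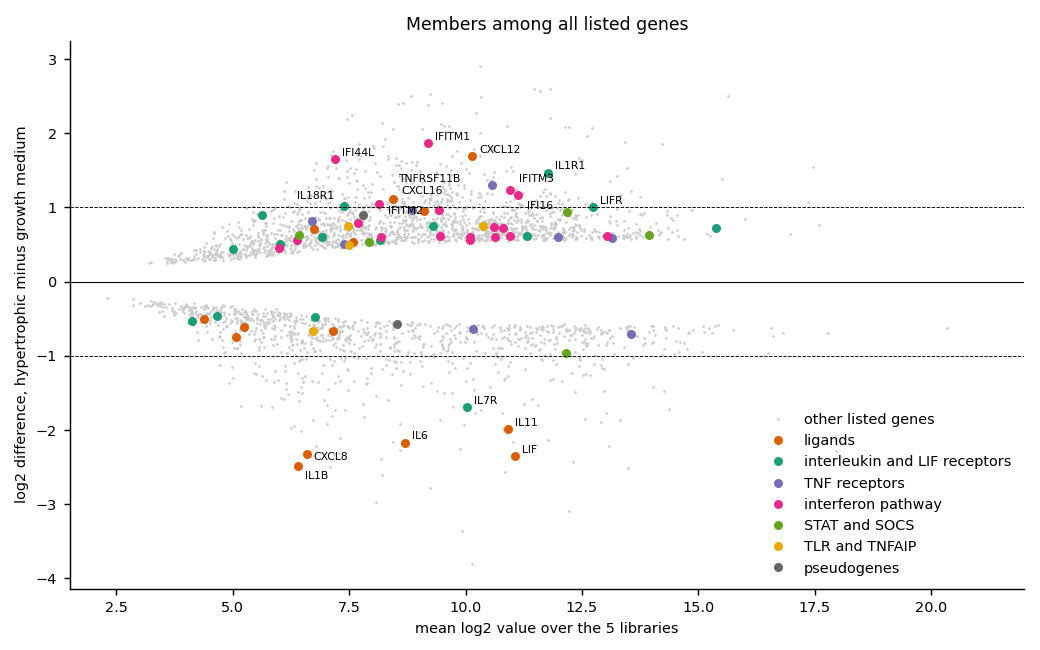
Log2 difference (hypertrophic minus growth medium) of each listed gene against its mean log2 value over the 5 libraries. Grey points are the other listed genes, colored points the 66 members by role, dashed lines mark differences of -1 and 1, and the 17 members past either line are named. IL1B, LIF, CXCL8, IL6, IL11 and IL7R lie lowest, IFITM1 and CXCL12 highest, and no listed gene lies near 0.

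The split between higher and lower members depended on how the libraries were scaled. Centring takes its median over genes that appear already selected as changed, 63.4% of them higher, so it may also remove true differences. A call lost after centring therefore does not show that a gene was unchanged. When each library was centred on its median over the listed genes, which lowers every difference by 0.35, 23 members were called higher and 18 lower, so that the share of higher calls went from 72.7% to 56.1%, and over all listed genes it went from 63.1% to 46.1%. With a difference of at least 1, 4 were then higher (IFITM1, CXCL12, IFI44L and IL1R1) and 11 lower, so that this share went from 64.7% to 26.7%, and over all listed genes from 62.6% to 17.5%. No member changed sign, since the smallest increase among the members, 0.44, is larger than the 0.35 removed. Without hypertrophic replicate 1, 6 members instead of 11 were higher by at least 1, namely IFITM1, CXCL12, IL1R1, IFI44L, IFI16 and IL6STP1, and the same 6 were lower, while the listed genes past 1 went from 318 to 254 higher and from 190 to 187 lower.

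**Figure D2:**
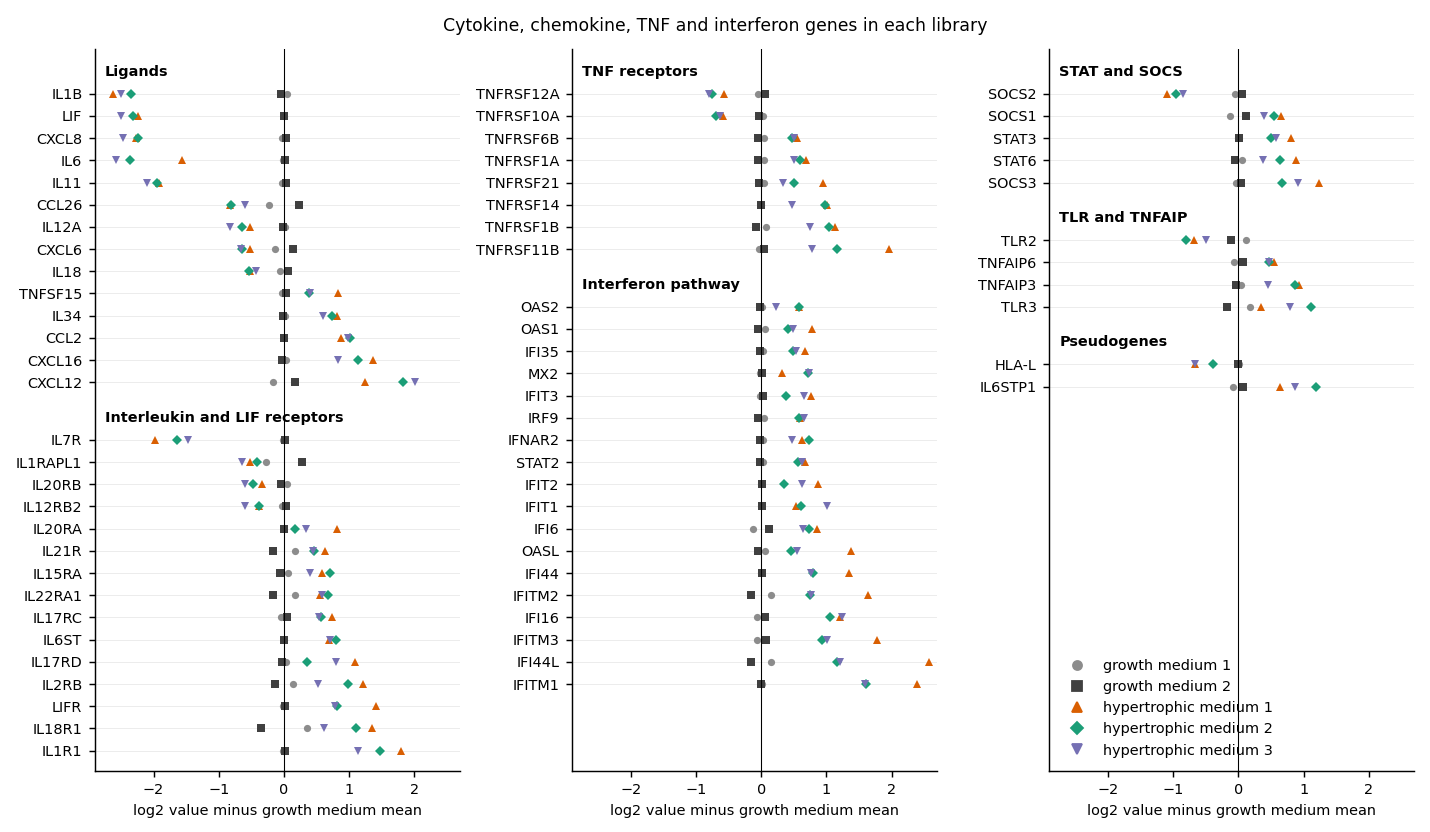
Value of each member in each library, minus the growth medium mean of that gene (log2), grouped by role. Circles and squares are the growth medium libraries, and triangles and diamonds the hypertrophic medium libraries. The 9 lower ligands lie left of 0 and all 18 interferon pathway genes right of it, with hypertrophic replicate 1 often farthest to the right.

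The ligand genes were the group with the largest decreases. Of the 14 listed, 9 were lower and 5 higher, with a median difference of -0.64, and 5 were lower by at least 1 (35.7%, against 7.05% of listed genes). IL1B, which encodes interleukin-1β, a main inducer of cartilage breakdown, lies on chromosome 2 of GRCh37 from 113587328 to 113594393. It was 7.94 and 7.84 in growth medium and 5.27, 5.54 and 5.39 in hypertrophic medium replicates 1, 2 and 3. The media were far apart, with a difference of -2.49 (standard error 0.15, adjusted p = 7.14e-06, limma) that ranked 10 among all decreases. Without any of the 5 libraries it stayed between -2.56 and -2.42.

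CXCL8, the interleukin-8 gene, whose product recruits neutrophils, lies on chromosome 4 from 74606236 to 74609433. Its values were 7.95 and 8.01 in growth medium and 5.71, 5.74 and 5.51 in hypertrophic medium, so the libraries within each medium lay close together. The difference was -2.33 (standard error 0.15, adjusted p = 8.46e-06, limma), rank 14 among the decreases. CXCL6, a neutrophil chemokine near it on the same chromosome, fell by 0.61 (adjusted p = 0.00208, limma) from 5.61 ± 0.20 (SD, n = 2) to 5.01 ± 0.072 (SD, n = 3). The close relatives of CXCL6 in that cluster could share its reads, so its low values are uncertain. CCL26, the eosinophil chemokine eotaxin-3, fell by 0.75 (adjusted p = 0.00176, limma), with growth medium libraries at 5.30 and 5.75 and hypertrophic medium libraries from 4.69 to 4.92.

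The 3 listed cytokines of the interleukin-6 family, LIF, IL6 and IL11, all fell, and the receptor chains LIFR and IL6ST rose. LIF, leukemia inhibitory factor, lies on chromosome 22 from 30636442 to 30642748. It was 12.48 in each growth medium library, against 10.24, 10.16 and 9.97 in hypertrophic medium. Its difference of -2.36 (standard error 0.13, adjusted p = 4.33e-06, limma) ranked 13 among the decreases, and all 3 hypertrophic libraries were more than 2 below growth medium.

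IL6, the interleukin-6 gene on chromosome 7 from 22765503 to 22771621, was 10.00 and 10.02 in growth medium and 8.44, 7.64 and 7.43 in hypertrophic medium. Replicate 1 fell less than the other two. The difference was -2.17 (standard error 0.27, adjusted p = 0.000182, limma) and -2.48 without replicate 1. IL6-AS1, an antisense RNA that the naming rule left out and that overlaps IL6 on the opposite strand, also fell, by 1.09 (adjusted p = 0.000378, limma), and the library kit marks strand but no source used here states that counting used it.

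IL11, the interleukin-11 gene on chromosome 19 from 55875750 to 55881831, was 12.06 and 12.13 in growth medium and 10.18, 10.15 and 10.00 in hypertrophic medium. Interleukin-11 is a gp130 cytokine produced by mesenchymal cells. The difference of -1.99 (standard error 0.12, adjusted p = 7.14e-06, limma) changed little with any library left out, from -2.02 to -1.94. Against these decreases, the receptor chain LIFR, on chromosome 5 from 38474770 to 38608456, was 12.12 and 12.15 in growth medium and 13.54, 12.95 and 12.92 in hypertrophic medium.

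LIFR was highest in hypertrophic replicate 1. Its difference was 1.00 (standard error 0.18, adjusted p = 0.00109, limma), 0.80 without that replicate and 0.66 after median centring, so it passed 1 only narrowly. LIFR-AS1, an overlapping antisense RNA outside the rule, rose by 0.86 (adjusted p = 0.00254, limma). IL6ST, which encodes gp130 itself, was 14.93 and 14.94 in growth medium and 15.62, 15.73 and 15.64 in hypertrophic medium, a difference of 0.73 (standard error 0.11, adjusted p = 0.00054, limma) that kept an adjusted p of 0.032 after centring. IL6STP1, a pseudogene copy of IL6ST on chromosome 17, was higher by 0.90 (adjusted p = 0.00198, limma), and reads of the gene and this copy could be split between them, so its value is uncertain.

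**Figure D3:**
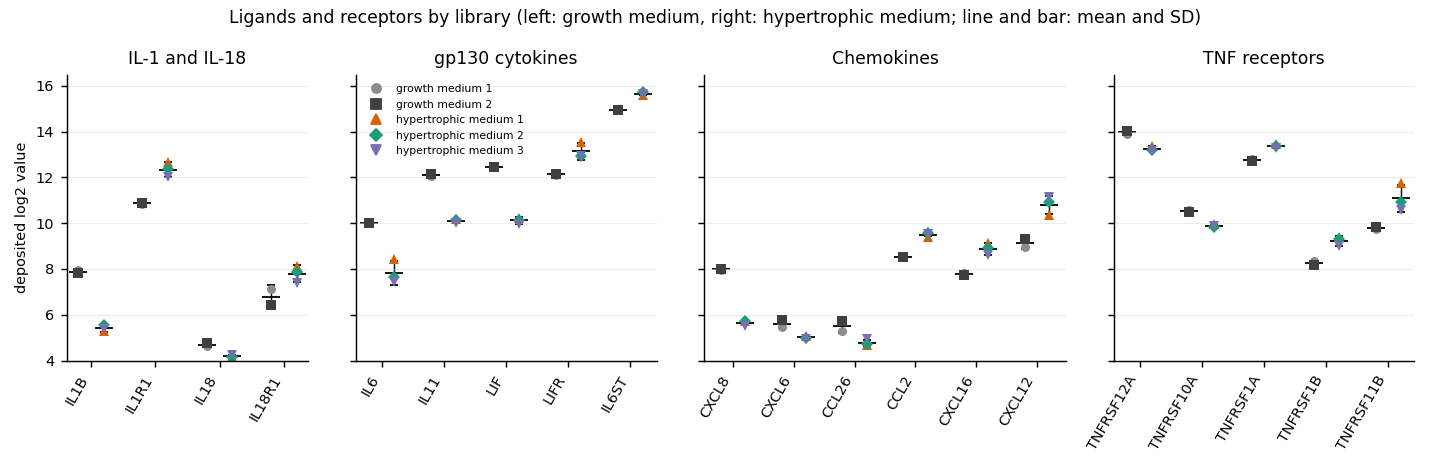
Deposited log2 values of ligands and receptors in each library, growth medium to the left and hypertrophic medium to the right of each gene, with the mean and SD as black lines (n = 2 and n = 3). Within the IL-1 and gp130 panels IL1B, IL6, IL11 and LIF are lower and IL1R1, LIFR and IL6ST higher in hypertrophic medium. Heights are not comparable between genes.

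The remaining lower ligands changed by less. IL12A, a subunit of interleukin-12 and interleukin-35, fell by 0.66 (adjusted p = 0.00346, limma), and IL18, an interleukin-1 family cytokine matured by inflammasomes, fell by 0.50 (adjusted p = 0.00126, limma) at low values of 4.68 ± 0.088 (SD, n = 2) and 4.18 ± 0.057 (SD, n = 3).

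The chemokine genes CXCL12, CXCL16 and CCL2 went the other way from CXCL8. CXCL12, known for retaining stem cells in bone marrow, lies on chromosome 10 from 44865613 to 44881941. It was 8.95 and 9.29 in growth medium and 10.36, 10.94 and 11.13 in hypertrophic medium. Replicate 1 was the lowest of the hypertrophic libraries, in contrast to most higher members, and the difference of 1.69 (standard error 0.22, adjusted p = 0.00024, limma) was 1.91 without it.

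CXCL16, a membrane-bound chemokine on chromosome 17 from 4636828 to 4643223, was 7.81 and 7.73 in growth medium and 9.14, 8.91 and 8.60 in hypertrophic medium. The difference was 1.11 (standard error 0.18, adjusted p = 0.000667, limma), 0.99 without replicate 1. CCL2, the monocyte chemokine MCP-1, was 8.54 in each growth medium library, against 9.42, 9.55 and 9.52 in hypertrophic medium, a difference of 0.96 (standard error 0.13, adjusted p = 0.000336, limma). The 6 listed chemokines thus divided evenly, with CXCL8, CXCL6 and CCL26 lower and CXCL12, CXCL16 and CCL2 higher.

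IL34, a ligand of the macrophage receptor CSF1R, rose by 0.72 (adjusted p = 0.00186, limma). TNFSF15, a TNF family ligand also called TL1A, rose by 0.53 (adjusted p = 0.0168, limma), but its call was lost without growth medium replicate 1 or 2 (adjusted p of 0.0907 and 0.0649) and after median centring (0.303).

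Of the 15 interleukin and LIF receptor genes, 11 were higher and 4 lower in hypertrophic medium, with a median difference of 0.61. This share, 73.3% higher, and the median were near the 63.4% and 0.56 of all listed genes. After median centring 6 of the 11 were still called higher, as were 845 of the 1707 higher listed genes. IL1R1, the signaling receptor for interleukin-1, on chromosome 2 from 102681004 to 102796334, had the largest increase of them. It was 10.86 and 10.90 in growth medium and 12.67, 12.36 and 12.02 in hypertrophic medium, a difference of 1.47 (standard error 0.18, adjusted p = 0.000169, limma) that was 1.31 without replicate 1 and 1.12 after centring.

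IL1R1 thus rose where its ligand gene IL1B fell, as LIFR did against LIF, whereas IL12A and the receptor chain gene IL12RB2 both fell. IL18R1, the receptor for interleukin-18, lies on chromosome 2 from 102927989 to 103015237. Its growth medium libraries differed, at 7.14 and 6.42, and hypertrophic medium replicates 1, 2 and 3 were 8.12, 7.88 and 7.39. The difference was 1.02 (standard error 0.26, adjusted p = 0.00518, limma), and without growth medium replicate 2 it was 0.66 with an adjusted p of 0.0513.

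IL7R, the receptor for interleukin-7 and part of that for TSLP, had the largest decrease among the receptor genes. On chromosome 5 from 35852797 to 35879705, it was 11.03 and 11.05 in growth medium and 9.06, 9.41 and 9.57 in hypertrophic medium. This was the only receptor gene lower by at least 1, with a difference of -1.70 (standard error 0.16, adjusted p = 5.59e-05, limma). IL20RB fell by 0.47, IL12RB2 by 0.46 and IL1RAPL1, a synaptic relative of the interleukin-1 receptor, by 0.53. IL1RAPL1 depended on its growth medium libraries, 4.18 and 4.73, since without replicate 1 the difference was -0.80 and without replicate 2 it was -0.25 with an adjusted p of 0.064. For IL20RB the adjusted p was 0.0968 and 0.0579 without growth medium replicate 1 and 2.

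Smaller receptor increases were those of IL2RB at 0.90, IL17RD at 0.75, IL17RC at 0.61, IL22RA1 at 0.61, IL15RA at 0.56, IL21R at 0.51 and IL20RA at 0.44. IL17RC encodes a chain of the interleukin-17 receptor and IL17RD an antagonist of FGF signaling. IL2RB, a chain of the receptor for interleukin-2 and interleukin-15, had low values of 5.22 and 4.95 in growth medium and 6.29, 6.06 and 5.60 in hypertrophic medium (adjusted p = 0.00253, limma). Without growth medium replicate 2 the calls of IL22RA1, IL15RA and IL21R were lost, with adjusted p of 0.10, 0.0739 and 0.138. IL20RA was the weakest member, losing its call without growth medium replicate 1 or 2 or hypertrophic replicate 1 or 3, and its difference was 0.26 without hypertrophic replicate 1.

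Of the 8 TNF receptor genes 6 were higher, with a median difference of 0.60, near the 63.4% and 0.56 of all listed genes. After median centring 3 of the 6 were called higher, and TNFRSF1A, TNFRSF21 and TNFRSF6B were not (adjusted p of 0.0658, 0.137 and 0.334). In all 8 hypertrophic replicate 1 was the highest of the hypertrophic libraries. TNFRSF11B, which encodes osteoprotegerin, the decoy receptor that blocks RANKL, lies on chromosome 8 from 119935796 to 119964124. It was 9.75 and 9.83 in growth medium and 11.75, 10.95 and 10.56 in hypertrophic medium.

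The hypertrophic libraries of TNFRSF11B spread over more than 1, and the difference of 1.30 (standard error 0.28, adjusted p = 0.0023, limma) was 0.97 without replicate 1. Both TNF receptors rose. TNFRSF1B, the gene of TNF receptor 2, went from 8.26 ± 0.11 (SD, n = 2) to 9.23 ± 0.20 (SD, n = 3), a difference of 0.97 (adjusted p = 0.000759, limma). TNFRSF1A, the gene of TNF receptor 1, which carries the death domain, was 12.82 and 12.74 in growth medium and 13.47, 13.38 and 13.27 in hypertrophic medium, a difference of 0.59 (adjusted p = 0.0013, limma).

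TNFRSF14, the HVEM gene, rose by 0.82, TNFRSF21, the gene of death receptor 6, by 0.60 and TNFRSF6B, the gene of the soluble decoy receptor DcR3, by 0.51. TNFRSF6B shares its locus with a readthrough transcript from RTEL1 and is therefore uncertain, and its adjusted p was 0.0907 without growth medium replicate 2. The 2 lower genes were TNFRSF12A, the receptor for TWEAK, which fell by 0.71 (adjusted p = 0.00077, limma) from 13.97 ± 0.079 (SD, n = 2) to 13.26 ± 0.12 (SD, n = 3), and TNFRSF10A, the gene of TRAIL receptor 1, which fell by 0.64 (adjusted p = 0.00121, limma).

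All 18 listed interferon pathway genes were higher in hypertrophic medium, where 63.4% of all listed genes were higher. Their differences ranged from 0.46 to 1.87, with a median of 0.67, against 0.70 over the higher listed genes. Of them 5 (27.8%) rose by at least 1, against 11.8% of all listed genes and 18.6% of the higher listed genes. IFITM1, IFITM2 and IFITM3 are among these 5. After median centring all 18 stayed above 0 and 7 kept an adjusted p under 0.05, namely IFITM1, IFITM2, IFITM3, IFI44, IFI44L, IFI6 and IFI16. Of the 1707 higher listed genes 1643 stayed above 0 and 845 kept the call, so neither count sets this group apart. Without hypertrophic replicate 1 all 18 were called higher and 3 rose by at least 1, with a median of 0.65, the same as over the higher listed genes (0.65), of which 1624 were called and 254 rose by at least 1.

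IFITM1, IFITM2 and IFITM3 encode membrane proteins that block the entry of enveloped viruses and lie beside each other on chromosome 11, and as close paralogs they could share reads, so their separate values are uncertain. IFITM1, from 310041 to 315272, was 8.08 and 8.07 in growth medium and 10.46, 9.69 and 9.67 in hypertrophic medium. Its difference of 1.87 (standard error 0.23, adjusted p = 0.000194, limma) was the largest increase among the members and 1.61 without replicate 1. IFITM3, from 319676 to 329475, was 10.14 and 10.28 in growth medium against 11.98, 11.15 and 11.22.

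The IFITM3 difference was 1.24 (standard error 0.23, adjusted p = 0.00112, limma) and 0.97 without replicate 1. IFITM2, from 303655 to 309397, was 7.67 and 7.36 in growth medium and 9.16, 8.26 and 8.28 in hypertrophic medium, a difference of 1.05 (standard error 0.27, adjusted p = 0.0049, limma) that was 0.76 without replicate 1. In all 3 genes replicate 1 stood well above the other hypertrophic libraries, which nearly coincided.

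IFI44L and IFI44 are neighbors on chromosome 1 and interferon-induced genes used as markers of that response. IFI44L, from 79085587 to 79111830, was 6.36 and 6.05 in growth medium and 8.78, 7.37 and 7.42 in hypertrophic medium. Replicate 1 was far above the other two, and the difference of 1.65 (standard error 0.38, adjusted p = 0.00289, limma) was 1.19 without it. In IFI44 replicate 1 was again the highest, with 8.84 and 8.86 in growth medium against 10.20, 9.65 and 9.61, with a difference of 0.97 (standard error 0.19, adjusted p = 0.00138, limma) that was 0.78 without replicate 1.

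IFI16, a sensor of DNA in the nucleus and cytosol, on chromosome 1 from 158969758 to 159024945, did not depend on replicate 1. It was 10.36 and 10.48 in growth medium and 11.63, 11.48 and 11.66 in hypertrophic medium. The difference was 1.17 (standard error 0.12, adjusted p = 8.12e-05, limma) and 1.15 without that replicate. IFI6 rose by 0.74 and IFI35 by 0.56.

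Genes of the transcription complex and its receptor moved by similar amounts and with little spread. STAT2 rose by 0.62 (adjusted p = 0.000892, limma), IRF9 by 0.61 (adjusted p = 0.00132, limma) and the receptor gene IFNAR2 by 0.61 (adjusted p = 0.0017, limma). The 3 hypertrophic libraries of STAT2 were 13.34, 13.24 and 13.30 against 12.70 and 12.65 in growth medium, and those of IRF9 were 10.86, 10.84 and 10.92 against 10.31 and 10.22. After median centring none of these 3 genes was called, with adjusted p of 0.0566, 0.0828 and 0.0662.

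The IFIT genes, which bind foreign RNA, rose by 0.72 (IFIT1), 0.62 (IFIT2) and 0.60 (IFIT3). IFIT1 was highest in hypertrophic replicate 3, at 11.38 against 10.92 and 10.99 in replicates 1 and 2 and 10.37 and 10.39 in growth medium. Differences of the oligoadenylate synthetase genes, whose products activate RNase L, were 0.56 (OAS1), 0.46 (OAS2) and 0.80 (OASL, an inactive relative), and that of MX2 was 0.60. Their calls were the least firm of the group, since OAS1 and OASL lost theirs without growth medium replicate 2 (adjusted p of 0.0617 and 0.0522), MX2 without growth medium replicate 1 (0.0562), and OAS2 without growth medium replicate 1 or 2 or hypertrophic replicate 2 (0.0631, 0.0747 and 0.0538). OASL was 8.59, 7.66 and 7.76 in hypertrophic medium and its difference was 0.50 without replicate 1.

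**Figure D4:**
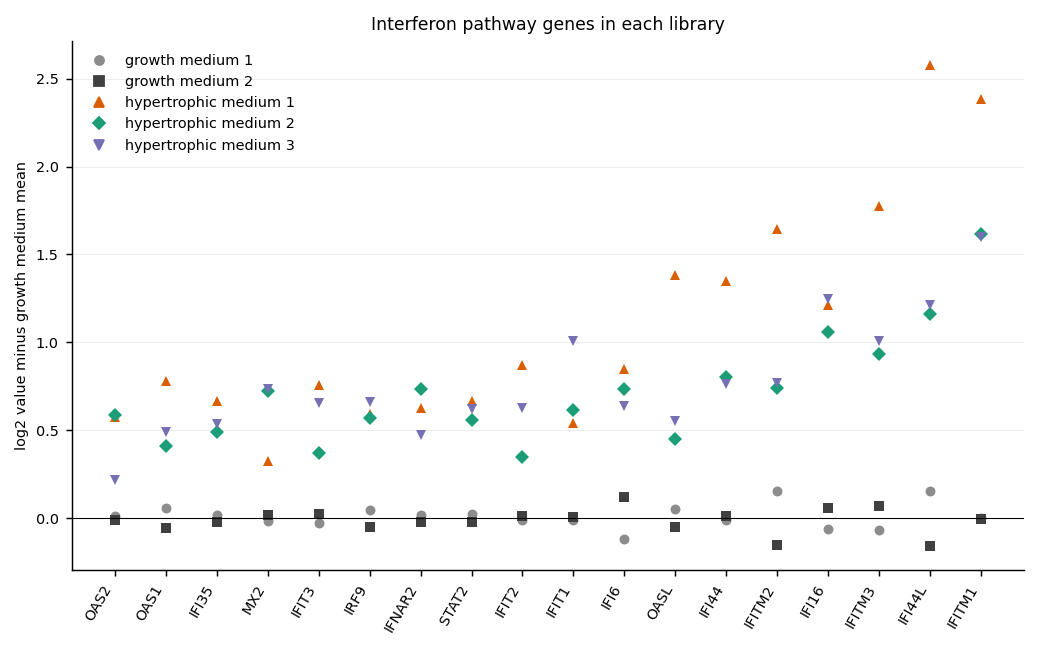
Interferon pathway genes in each library, as the log2 value minus the growth medium mean of the gene, ordered by their difference. Growth medium libraries lie near 0 and all hypertrophic medium libraries above them. Hypertrophic replicate 1 (triangles pointing up) lies far above the other two in IFITM1, IFITM2, IFITM3, IFI44, IFI44L and OASL and among or below them in MX2, IFIT1 and IFI16.

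The intracellular regulators of cytokine signaling divided. SOCS2, an inhibitor of growth hormone signaling, fell by 0.97 (standard error 0.12, adjusted p = 0.000188, limma), from 12.67 and 12.78 to 11.64, 11.77 and 11.87, and its overlapping antisense RNA SOCS2-AS1, outside the rule, fell by 0.70 (adjusted p = 0.00187, limma). SOCS3, the inhibitor induced by gp130 and STAT3, rose by 0.94 (standard error 0.16, adjusted p = 0.000867, limma), from 11.58 and 11.65 to 12.85, 12.28 and 12.52. SOCS3 therefore rose while IL6, IL11 and LIF fell.

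STAT3 rose by 0.63 (adjusted p = 0.00157, limma) from 13.57 ± 0.0078 (SD, n = 2) to 14.20 ± 0.16 (SD, n = 3), and STAT6, the factor of interleukin-4 signaling, by 0.63 (adjusted p = 0.00703, limma). Neither was called after median centring, with adjusted p of 0.0623 and 0.125. SOCS1, an inhibitor of interferon signaling, rose by 0.53 (adjusted p = 0.0115, limma). Its call was lost without growth medium replicate 1 (0.14) and after median centring (0.283).

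TNFAIP3 encodes A20, the enzyme that switches NF-κB signaling off. It was 9.95 and 9.88 in growth medium and 10.84, 10.79 and 10.36 in hypertrophic medium, a difference of 0.75 (standard error 0.16, adjusted p = 0.00219, limma), opposite in direction to IL6 and CXCL8, whose promoters carry the same NF-κB letters. TNFAIP6, whose product TSG-6 binds hyaluronan and dampens inflammation, rose by 0.50 (adjusted p = 0.0104, limma). It was not called without growth medium replicate 1 (0.117) or after median centring (0.372).

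The Toll-like receptors went in opposite directions. TLR2, which recognizes bacterial lipopeptides and matrix fragments, fell by 0.66 (adjusted p = 0.00404, limma), from 7.23 and 7.00 to 6.43, 6.31 and 6.62. TLR3, which recognizes double-stranded RNA, was 7.20 and 6.85 in growth medium and 7.37, 8.14 and 7.82 in hypertrophic medium. Its difference of 0.76 (adjusted p = 0.0113, limma) was 0.96 without hypertrophic replicate 1. The adjusted p of TLR3 was 0.0812 without growth medium replicate 2 and 0.163 after median centring.

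HLA-L, a pseudogene related to the class I HLA genes, was the only HLA member. It fell by 0.58 (adjusted p = 0.00607, limma), with an adjusted p of 0.0527 without growth medium replicate 1, and its reads could come from other HLA genes. HLA-F-AS1, an antisense RNA outside the rule, rose by 0.71 (adjusted p = 0.00191, limma).

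Other genes of the same pathways were taken from lists of textbook members, without the genes named above. Of 49 further interferon response genes, 12 were listed and all 12 rose, with a median of 0.79, and 8 were still called after median centring, beside 63.4% higher among all listed genes and 845 of those 1707 still called. BST2, the gene of tetherin, which holds budding viruses at the cell surface, rose most, by 1.82 (adjusted p = 0.00141, limma), with 7.16 and 7.09 in growth medium and 9.82, 8.66 and 8.37 in hypertrophic medium. As with the IFITM genes, replicate 1 was the highest and the difference was 1.39 without it. GBP2, a guanylate-binding protein gene, rose by 1.09 and XAF1, a pro-apoptotic interferon target, by 1.08, and IDO1, CMPK2, PARP9, DTX3L, TRIM22, PML, EPSTI1, STING1 and DHX58 by 0.51 to 0.92.

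From the NF-κB pathway 5 of 41 genes were listed. MYD88, the adaptor of interleukin-1 and Toll-like receptors, rose by 1.00 (adjusted p = 0.00043, limma) and by 0.92 without hypertrophic replicate 1, and BCL3, a nuclear partner of NF-κB, rose by 0.98. BIRC3, CARD10 and IRAK2 fell by 0.79, 0.72 and 0.58. In the JAK-STAT list 7 of 31 genes were listed. CSF1 and CISH rose by 0.94 and 0.87, and OSMR, the oncostatin M receptor that pairs with gp130, by 0.70, while CSF1R fell by 0.51, with an adjusted p of 0.0617 without hypertrophic replicate 1. The antigen presentation list had 3 of 24 genes listed, and TAPBP, MR1 and CIITA rose by 0.99, 0.60 and 0.62. After median centring MR1 and CIITA were not called (adjusted p of 0.0828 and 0.235), and CIITA was 0.38 without hypertrophic replicate 1.

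Of 35 inflammatory target genes known from chondrocytes 17 were listed, 9 rose, 7 fell and CHI3L1 was not called (adjusted p = 0.0618, limma), where 63.1% of the calls over all listed genes were higher. MMP1, the interstitial collagenase gene, fell by 3.80, and STC2 and HBEGF also fell by at least 1, whereas C3, ADAMTS5 and HAS2 rose by 2.02, 1.79 and 1.47. Among the protease genes of this list MMP1 and PLAU fell and ADAMTS5, ADAMTS4 and MMP13 rose. After median centring ADAMTS4 and MMP13 were not called (adjusted p of 0.162 and 0.116), nor was the prostaglandin synthase gene PTGES (0.11), which had risen by 0.80. CHI3L1 was 8.90 in hypertrophic replicate 1 against 6.56 and 6.60 in replicates 2 and 3, and without replicate 1 it was called, with a difference of 0.49 (adjusted p = 0.015, limma).

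Of 22 glucocorticoid-induced genes 9 were listed, 5 higher (55.6%, near the 63.4% of all listed genes) and 4 lower. Of these, CEBPD, PER1, KLF9, TSC22D3 and PDK4 rose, by 1.59, 1.03, 0.89, 0.59 and 0.45, and ANXA1, KLF15, DUSP1 and CRISPLD2 fell, by 1.05, 0.85, 0.78 and 0.73. After median centring TSC22D3 and PDK4 were not called (adjusted p of 0.0741 and 0.531). The list thus went in both directions, and the part of dexamethasone in these differences was not tested.

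Of 17 chondrocyte markers 6 were listed and all 6 rose, COL2A1 by 1.53, ACAN by 1.14, COL9A2 by 1.08, COL9A3 by 1.02, SOX9 by 0.65 and FRZB by 0.61, where 63.4% of all listed genes were higher. FRZB was 0.35 without hypertrophic replicate 1, and after median centring SOX9 and FRZB were not called (adjusted p of 0.0525 and 0.265). Of 17 leukocyte markers, the cells that express many of these cytokine genes most, CD14 and CSF1R were listed. CSF1R fell by 0.51 and CD14 was 7.68 and 7.97 in growth medium and 8.95, 9.35 and 8.91 in hypertrophic medium. Endothelial markers were CDH5, which fell by 1.19, and TEK, which rose by 1.39, of 5. Of 7 fibroblast and synovial lining markers LUM, PDGFRA and PDGFRB rose, by 1.30, 0.97 and 0.95. The other markers of these lists were not analysed here, and the part of any other cell type in these results was not tested.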

How the data were processed

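Total RNA libraries of TC28a2 cells in growth medium (n = 2) and hypertrophic medium (n = 3) were compared. According to the study's methods the reads were aligned to hg19 with HISAT2 and counted on NCBI genes with StringTie, genes with a zero count were excluded, and the deposited values are log2-transformed and RLE-normalized by the authors. The submitters' processing notes instead name TopHat2 2.0.13, Cuffdiff 2.2.1, cutadapt 1.18 and the rat build rn5, and the conflict could not be settled from the files, which carry human symbols. Read depth is unknown, so no counting error was given.

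A linear model of medium was fitted to each gene without pairing (lmFit of limma 3.58.1, R 4.3.3) and moderated by eBayes with trend, with Benjamini-Hochberg adjustment over the 2694 listed genes and calls at an adjusted p under 0.05, alone or with a log2 difference of at least 1. An exact permutation of the 5 libraries has 10 arrangements and a smallest p of 0.1, reached by 53 of the 66 members. Members, pathway lists and alternatives were chosen with earlier results of these data known. Every member is named, with values in each library for those past a difference of 1, and of the pathway lists the genes past 1 or the 3 largest, of which some are not reported here; further listed genes were named after their values were seen. Gene coordinates are GENCODE 44 on GRCh37, in which 65 members matched a single gene, and promoter sequences are RefSeq, GRCh38.p14. Other steps used Python 3.11.15, pandas 2.3.3 and matplotlib 3.10.9.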

Additional observations from a re-analysis of the deposited data

How the results depend on the processing

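No member changed sign under any alternative run, which the selection of the listed genes largely fixed. In each member the media did not overlap, so leaving out a library could not change a sign. Centring removes 0.35, less than the smallest increase of 0.44. With eBayes without a trend, robust eBayes or the replicate block, all 66 members kept an adjusted p under 0.05 (limma), as did 2626, 2653 and 2665 of the 2694 listed genes. Under median centring 41 members and 1832 listed genes did, and under quantile normalization 50 and 2221. With a library left out, 53 to 65 members were called and 2261 to 2620 listed genes. By at least 1, 6 to 14 members were then higher and 6 to 7 lower, and 254 to 416 listed genes higher and 187 to 205 lower. Median centring gave 4 members higher and 11 lower, and 120 listed genes higher and 565 lower; quantile normalization gave 4 members higher and 8 lower, and 150 listed genes higher and 398 lower. By more than 2, 0 members were higher and 4 lower, and 28 listed genes were higher and 29 lower. Centring lowers every difference by construction, while the cause of the other changes was not tested. With the replicate block 14 members and 418 listed genes were higher and 7 and 202 lower by at least 1, with IFI44, IL2RB, SOCS2 and TNFRSF1B added among the members. Hypertrophic replicate 3 has no partner and drops out of this fit, whose differences equal those without that library. The fit leaves little spread within a gene to estimate, so its adjusted p rest mostly on spread pooled across genes. The labels do not say whether libraries of the same number were paired. Between the media, deviations correlated across genes at 0.061 for replicate 1 and -0.13 for replicate 2. With 2 growth medium libraries, both values use the same growth medium deviations with opposite sign, so pairing cannot be settled from them.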
